A study of Arabidopsis thaliana with 24 samples.

Results

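Heat shock factors are transcription factors that bind heat shock elements, arrays of inverted GAA units in the promoters of chaperone genes, through a winged helix-turn-helix domain. Plants carry many such genes. Class A members hold an activation motif. In Arabidopsis the 4 class A1 members HSFA1A, HSFA1B, HSFA1D and HSFA1E are known as the first factors of the heat response: HSP70 and HSP90 hold their proteins inactive until heat releases them, and they then switch on later factors such as HSFA2. HSFA4A, HSFA4C and HSFA8 have been tied to oxidative stress or to root growth, and the HSFA5 protein is known to bind class A4 factors and to repress their activity. The genes described here are these 8, chosen by identifier out of 33602 listed genes, of which 32328 had values. They are HSFA1A (AT4G17750), HSFA1B (AT5G16820), HSFA1D (AT1G32330), HSFA1E (AT3G02990), HSFA4A (AT4G18880), HSFA4C (AT5G45710), HSFA5 (AT4G13980) and HSFA8 (AT1G67970), and all 8 passed the filter on low counts.

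PolyA RNA of whole Arabidopsis thaliana seedlings, Columbia background, was sequenced from WT and from the mutant pif4-101, called pif4 below. PIF4 is a basic helix-loop-helix factor of light and temperature signalling. Every group got 3 h of white light at 22 °C to start germination and 3 days of darkness at 22 °C. It then stayed at 22 °C for 3 h or spent 3 h at 37 °C. Each of the 4 groups held 3 libraries, lettered a, b and c in the deposited table. The lines PIF4-L.1 and PIF4-L.2 of the series were not analysed here. Levels are in CPM, read counts brought to 1 common library total through TMM-scaled library sizes. This scaling assumes that most genes do not change in level between libraries, even where their share of the reads does. Under it, 9672 of 18774 genes passed the threshold given below on heat in WT, and 9336 in pif4. The assumption was therefore not shown to hold between the temperatures.

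Library totals ran from 3176106 to 14791597 reads, and the library lettered a had the lowest total of its group in all 4 groups. PIF4 (AT2G43010) was read in the pif4 libraries at 17.2, 23.99 and 11.2 CPM at 22 °C against 7.81, 13.3 and 8.87 CPM in WT, and the difference was not called (0.76 ± 0.28 log2 ± SE, edgeR adjusted p = 0.809). At 37 °C it was 21.6, 22.0 and 22.6 CPM in pif4 against 22.1, 33.3 and 30.9 CPM in WT (-0.40 ± 0.27, adjusted p = 0.681). Counts per gene therefore do not check the mutant label, and "pif4" below means the libraries labelled so. Markers of root endodermis (CASP1 and CASP2), etioplasts (PORA and PORB) and shoot epidermis (CER1 and ATML1) were all read in every group. Of the 8 markers given here, which include the light-induced ELIP1 and ELIP2, 3 were called lower and 1 higher on heat in WT, where 26% of all genes were called lower and 25.5% higher, and 5 lower and 1 higher in pif4, against 24.1% and 25.6%. The marker called higher in both was ELIP1 (4.28 ± 0.37 log2 ± SE in WT). ELIP2 was not called in WT (-0.92 ± 0.46) and was called lower in pif4 (-1.29 ± 0.45). With total counts as library size, 7 markers were called lower in each genotype, where 62% of all genes were. In WT the level of CASP2, the marker with the largest fall, was 57.4 ± 4.28 CPM (SD, n = 3) before heat and 6.39 ± 0.556 CPM after it. CASP1, of the same cell type, went from 132.6 ± 12.9 to 55.4 ± 10.9 CPM. PORB, CER1 and ATML1 were not called in WT. In a whole seedling, fewer cells of a type and less RNA per cell cannot be told apart, and the part of the markers that moved in the values below was not tested.

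After 3 h of heat HSFA1D, HSFA1E, HSFA4A and HSFA4C were higher in both genotypes, although with total counts as library size the direction of HSFA4C turned in both and that of HSFA4A in pif4. HSFA5 was called lower in WT and not in pif4, and HSFA1B was called lower in pif4 and not in WT (the differences themselves, given further on, were not called), while HSFA1A and HSFA8 were called in neither. The threshold for a call was an adjusted p under 0.05 (edgeR quasi-likelihood test, Benjamini-Hochberg over 18774 genes). In WT, 4 of the 8 genes were called higher, where 25.5% of all genes were, and 1 was called lower, where 26% were. In pif4, 4 were called higher and 1 lower, against 25.6% and 24.1% of all genes. The median log2 change of the 8 genes was 0.50 in WT and 0.66 in pif4, beside medians over all genes of -0.12 and -0.10. With 8 genes, a share of this kind is a description of these genes and not a property of the set.

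Directions depend on how libraries are scaled. The TMM factor of a library lay between 1.301 and 1.496 before heat and between 0.678 and 0.734 after it. With total counts in place of TMM the median of all genes moved from -0.12 to -1.13 in WT and from -0.10 to -1.13 in pif4. The call rule then gave 2 of the 8 genes higher and 2 lower in each genotype, and over all genes 1785 higher and 11642 lower in WT and 1755 higher and 11641 lower in pif4, against 4793 and 4879 in WT and 4810 and 4526 in pif4 under TMM.

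**Figure D1:**
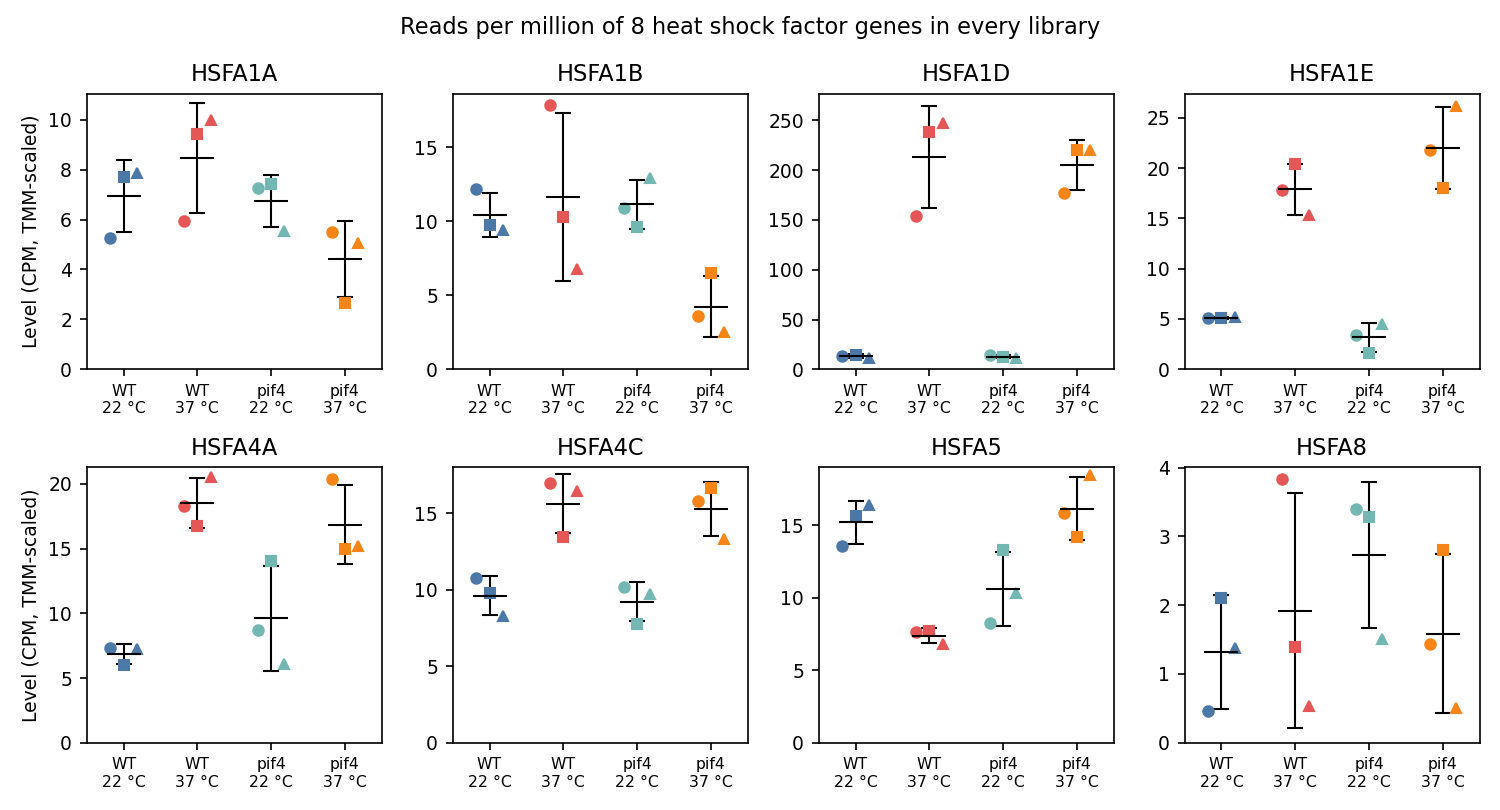
Level in CPM (TMM-scaled, linear axes from 0) of each of the 8 genes in the 12 libraries, with circles, squares and triangles for libraries a, b and c, long dashes for the mean of 3 libraries and bars for its SD. HSFA1D went from 10.9 to 14.7 CPM at 22 °C in WT to 154 to 247 CPM at 37 °C, while HSFA5 went down in WT and lay higher at 37 °C in pif4, a direction that turned with total counts.

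HSFA1D, one of the class A1 activators, had the largest change of the 8 genes. In WT at 22 °C its libraries a, b and c held 13.3, 14.7 and 10.9 CPM, and at 37 °C they held 154, 238 and 247 CPM. In pif4 the libraries held 14.1, 12.8 and 11.3 CPM at 22 °C and 177, 220 and 220 CPM at 37 °C. The 2 temperatures did not overlap in either genotype. The log2 change was 4.05 ± 0.20 in WT, a 16.5-fold rise (edgeR adjusted p = 9.59e-13), and 4.03 ± 0.20 in pif4 (adjusted p = 1.24e-12). With total counts as the library size the change was 3.02 in WT and 3.00 in pif4.

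HSFA1E, the class A1 member whose coding sequence is nearest to HSFA1B, rose less. Its WT libraries lay at 5.05, 5.08 and 5.17 CPM at 22 °C and at 17.9, 20.4 and 15.4 CPM at 37 °C. Those of pif4 lay at 3.39, 1.58 and 4.52 CPM and then at 21.8, 18.02 and 26.2 CPM. Again no heated library was as low as any control library. The change was 1.81 ± 0.32 in WT, 3.497-fold (adjusted p = 8.45e-05), and 2.75 ± 0.33 in pif4, 6.73-fold (edgeR adjusted p = 8.88e-07). With total counts it was 0.79 in WT (adjusted p = 0.0415) and 1.72 in pif4.

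HSFA1A and HSFA1B, the other class A1 genes, did not rise by this test. HSFA1A held 5.28, 7.69 and 7.87 CPM in WT at 22 °C and 5.95, 9.42 and 10.01 CPM at 37 °C, a difference of 0.29 ± 0.36 (edgeR adjusted p = 0.517). In pif4 it held 7.27, 7.43 and 5.55 CPM and then 5.52, 2.67 and 5.07 CPM (-0.62 ± 0.38, adjusted p = 0.177). The groups overlapped in WT, while in pif4 the heated libraries lay below the control libraries. HSFA1B held 12.2, 9.75 and 9.42 CPM in WT at 22 °C and 17.9, 10.3 and 6.79 CPM at 37 °C, where library a was the highest and library c the lowest (0.12 ± 0.37, adjusted p = 0.810). In pif4 it fell from 10.9, 9.62 and 12.9 CPM to 3.60, 6.54 and 2.53 CPM (-1.37 ± 0.38, adjusted p = 0.00569), with no overlap. The annotated HSFA1B gene overlaps SYP21 on the other strand by 44 bases in the RefSeq annotation, and whether counting used strand is not given in the sources used here. With total counts the direction in WT turned for both, to -0.74 for HSFA1A and -0.89 for HSFA1B (adjusted p = 0.0379). In pif4, HSFA1A was then called lower (-1.65, adjusted p = 0.000885).

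Summed over the 4 class A1 genes, WT libraries held 33.3 to 37.2 CPM at 22 °C and 196 to 279.3 CPM at 37 °C, and pif4 libraries held 31.4 to 35.6 and 208 to 254 CPM. Without HSFA1D the sums were 22.5 CPM in all 3 WT libraries at 22 °C and 32.2 to 41.7 CPM at 37 °C. In pif4 they were 18.6 to 23.0 and 27.2 to 33.8 CPM. HSFA1D reads made up most of the rise of the class total in both genotypes.

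HSFA4A, a class A4 factor tied to responses to oxidative and salt stress, rose in WT from 7.35, 5.98 and 7.23 CPM to 18.3, 16.8 and 20.5 CPM. The groups were apart, and the change was 1.44 ± 0.30 (2.72-fold, edgeR adjusted p = 0.000497). In pif4 the libraries held 8.72, 14.0 and 6.09 CPM at 22 °C, where library b stood high, and 20.4, 14.95 and 15.2 CPM at 37 °C (0.81 ± 0.30, adjusted p = 0.0281). That call ended under RLE scaling (adjusted p = 0.0520), by DESeq2 (adjusted p = 0.0521) and without libraries a or c at 22 °C or library a at 37 °C. With total counts the direction in pif4 turned (-0.22) and the WT call ended (0.42, adjusted p = 0.228).

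HSFA4C, a class A4 gene also known from work on root growth, rose less again. It held 10.8, 9.80 and 8.28 CPM in WT at 22 °C and 17.01, 13.4 and 16.4 CPM at 37 °C, without overlap (0.70 ± 0.26, 1.63-fold, edgeR adjusted p = 0.0266). In pif4 it held 10.2, 7.79 and 9.71 CPM and then 15.8, 16.7 and 13.3 CPM (0.73 ± 0.25, 1.66-fold, adjusted p = 0.0218). The calls are close to the threshold. In WT, leaving out control library b or c, or heated library a or c, gave a value that was no longer called (adjusted p from 0.0613 to 0.111), and in pif4 the call ended without library b at 22 °C or library a or b at 37 °C (0.0548 to 0.0955). The direction turned with total counts in both genotypes (-0.31 in WT and -0.30 in pif4).

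**Figure D2:**
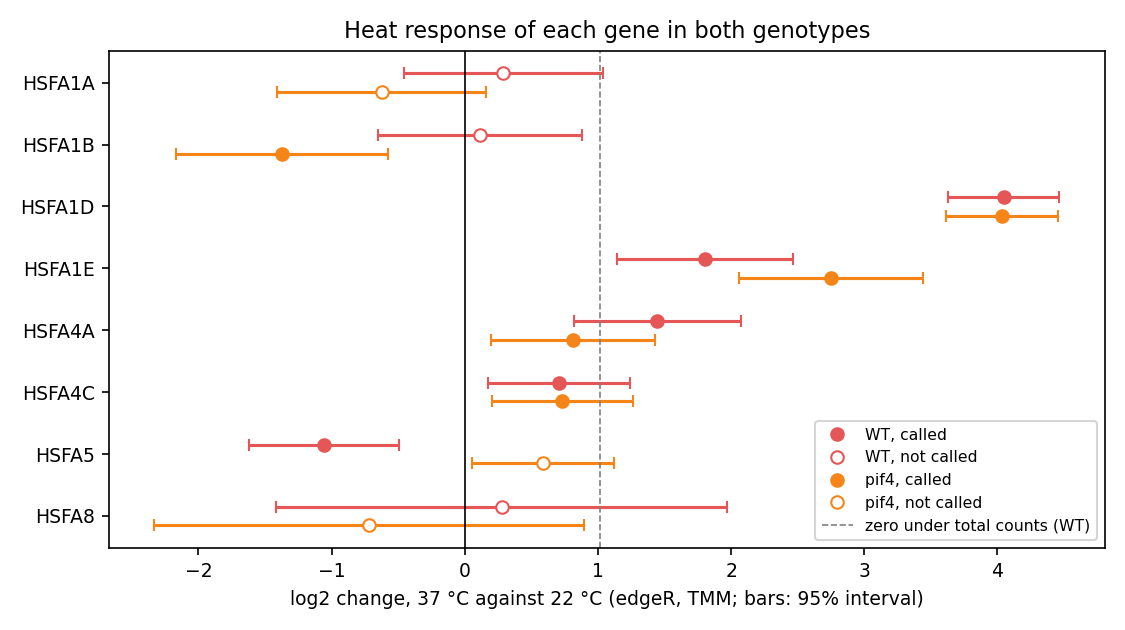
Log2 change from 22 °C to 37 °C of each gene in WT (red) and pif4 (orange) by edgeR with TMM scaling; bars are 95% intervals, filled points were called at an adjusted p under 0.05, and the dashed line is where zero would lie in WT under total counts. HSFA1D lies near 4 in both genotypes, and HSFA5 lies at -1.06 in WT and 0.59 in pif4.

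HSFA5, which encodes the repressor of class A4 factors, fell in WT. Its libraries held 13.5, 15.6 and 16.4 CPM at 22 °C and 7.65, 7.68 and 6.79 CPM at 37 °C, a change of -1.06 ± 0.27 (2.08-fold lower, edgeR adjusted p = 0.00286). In pif4 they held 8.24, 13.3 and 10.3 CPM at 22 °C and 15.8, 14.2 and 18.4 CPM at 37 °C (0.59 ± 0.26, adjusted p = 0.0616), which was not called and turned to -0.46 with total counts. Every heated WT library lay below every control WT library, and every heated pif4 library lay above every control pif4 library.

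HSFA8, a factor tied to sensing of oxidative stress, was read rarely, with 2 to 42 reads per library. It held 0.459, 2.11 and 1.37 CPM in WT at 22 °C and 3.83, 1.40 and 0.536 CPM at 37 °C. In pif4 it held 3.39, 3.29 and 1.51 CPM and then 1.44, 2.80 and 0.507 CPM. All groups overlapped, and the 95% interval of its log2 change was -1.41 to 1.97 in WT and -2.33 to 0.90 in pif4.

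Between genotypes none of the 8 genes was called at 22 °C, where 16 of 18774 genes (0.0852%) were (27 with the letters as a block, which also called no member), or at 37 °C, where 10 (0.0533%) were. At 22 °C all adjusted p were 1 by edgeR, no member reached an unadjusted p under 0.05, as 3.66% of all genes did, and DESeq2 called 0. Over all genes DESeq2 called more at 22 °C than edgeR did, a count also given at the end. HSFA5 was lower in pif4 by a log2 difference of -0.51 ± 0.25, with the lowest WT library at 13.5 CPM and the highest pif4 library at 13.3 CPM. HSFA1E differed by -0.65 ± 0.33. For HSFA1D the interval of the difference ran from -0.45 to 0.37. These values at 22 °C come from the fit without the letters as a block.

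At 37 °C 3 of the 8 genes reached an unadjusted p under 0.05, where 1988 of all 18774 genes (10.6%) did. HSFA5 was higher in pif4 by 1.13 ± 0.27 (edgeR adjusted p = 0.118), with 14.2 to 18.4 CPM against 6.79 to 7.68 CPM and no overlap. DESeq2 did call this difference (1.10, adjusted p = 0.0260), the 1 member it called. Over all genes DESeq2 also called more at 37 °C than edgeR did, a count given with the alternatives at the end. HSFA1B differed by -1.37 ± 0.40 (edgeR adjusted p = 0.192) and HSFA1A by -0.99 ± 0.38 (adjusted p = 0.362), both lower in all 3 pif4 libraries than in all 3 WT libraries. HSFA1D differed by -0.06 ± 0.17, with an interval of -0.42 to 0.31.

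The heat effects of the genotypes were also compared directly, as pif4 minus WT. No gene of 18774 was called by edgeR (0%), with 1025 (5.46%) at an unadjusted p under 0.05, and DESeq2 called 2 genes, neither of the 8. Of the 8 genes, 3 had an unadjusted p under 0.05. HSFA5 had the largest difference of the 8, 1.64 ± 0.37 on the log2 scale (95% interval 0.87 to 2.42, edgeR adjusted p = 0.524). HSFA1B lay at -1.49 ± 0.53 (adjusted p = 0.822) and HSFA1E at 0.95 ± 0.45 (adjusted p = 0.906). The heat effects of HSFA1D differed by -0.01 ± 0.26, with an interval of -0.56 to 0.54, and those of HSFA4C by 0.03 ± 0.36. The 2 heat comparisons share no libraries, but the difference uses all 12.

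Levels set against each other per kilobase of coding length (RefSeq, TAIR10.1) changed order with heat. In WT at 22 °C HSFA5 came first at 10.8 CPM per kb, then HSFA4C at 9.27, HSFA1D at 8.90 and HSFA1B at 7.22. Neighbours among these 4 overlapped in their library ranges. HSFA4A at 5.68, HSFA1A at 4.67 and HSFA1E at 3.62 CPM per kb followed, also overlapping from one to the next, with a gap between HSFA1B and HSFA4A. HSFA8 came last at 1.17 CPM per kb, apart from HSFA1E.

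In WT at 37 °C HSFA1D stood alone at 146 CPM per kb. HSFA4A at 15.4, HSFA4C at 15.1, HSFA1E at 12.7, HSFA1B at 8.06, HSFA1A at 5.69 and HSFA5 at 5.26 CPM per kb followed with each overlapping the next, and HSFA8 lay apart at 1.71. In pif4 at 22 °C the order opened with HSFA4C at 8.89 and HSFA1D at 8.73 CPM per kb, and HSFA4A at 7.97, HSFA1B at 7.71 and HSFA5 at 7.57 followed closely. HSFA1A at 4.54 CPM per kb was apart from both its neighbours, and HSFA8 at 2.43 and HSFA1E at 2.25 closed the order. In pif4 at 37 °C HSFA1D lay at 141 CPM per kb, above HSFA1E at 15.6, HSFA4C at 14.7, HSFA4A at 14.0 and HSFA5 at 11.5, and below these came HSFA1A at 2.97, HSFA1B at 2.92 and HSFA8 at 1.41. With the mRNA length in place of the coding length, the order changed among neighbours that overlap. HSFA4C moved from rank 2 to rank 4 in WT and from rank 1 to rank 4 in pif4 at 22 °C, where HSFA1D then came first and HSFA5 moved from rank 5 to rank 2. In WT at 37 °C HSFA4A moved from rank 2 to rank 4 and HSFA1E from rank 4 to rank 2. HSFA1D held rank 1 in both heated groups.

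As a share of the summed level per kilobase of the 8 genes, HSFA1D took 17.3 ± 2.08% in WT at 22 °C (SD, n = 3) and 68.9 ± 7.43% at 37 °C. In pif4 it took 17.4 ± 1.47% and 68.9 ± 3.75%. HSFA5 took 21.1 ± 2.30% in WT at 22 °C and 2.56 ± 0.517% at 37 °C, against 15.1 ± 3.15% and 5.65 ± 0.750% in pif4. The 4 class A1 genes together went from 47.5 ± 1.26% to 81.8 ± 4.31% in WT and from 46.6 ± 5.28% to 79.5 ± 2.93% in pif4. These shares do not depend on the scaling between libraries. They do depend on the length used for each gene, and shares by mRNA length were not computed.

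**Figure D3:**
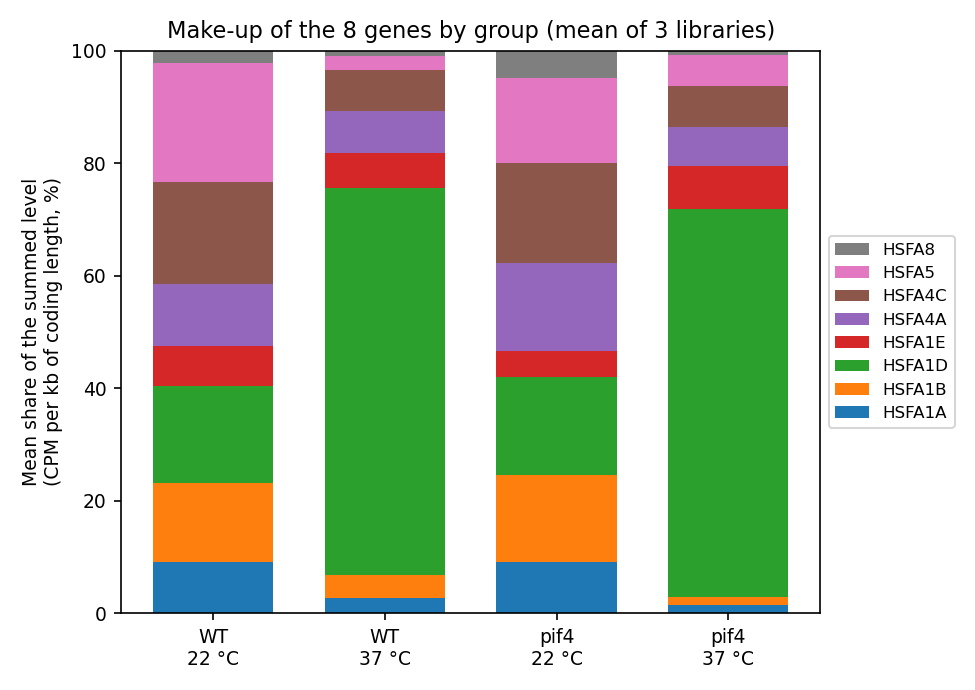
Mean share, in percent over 3 libraries per group, of each gene in the summed CPM per kilobase of coding length of the 8 genes, as stacked bars for WT and pif4 at 22 °C and 37 °C. HSFA1D grows from 17.3% to 68.9% in WT and from 17.4% to 68.9% in pif4.

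The region before each gene's start was read from the RefSeq genome (TAIR10.1, which keeps the nuclear chromosomes of TAIR10, the build in the submitters' processing notes). The 300 bases from 250 before to 50 after the start of each gene were searched on both strands for the 2-unit core of a heat shock element, GAANNTTC or TTCNNGAA, each of which is its own reverse complement. Of 27443 protein-coding genes, 19.3% held a core in this window, and 0.481% held 3 alternating units. Among the 8 genes, HSFA1E held a core 44 bases before the start, HSFA4A held one 173 bases before it and HSFA8 held one 26 bases after it. HSFA1A, HSFA1B, HSFA1D, HSFA4C and HSFA5 held none in the window, and no member held 3 units. The upstream 250 bases of the 3 genes with the largest rises in WT are shown, because they differ in this letter match while all 3 rose. Capitals mark the core.
HSFA1D upstream region, chr1:11660472-11660721, minus strand: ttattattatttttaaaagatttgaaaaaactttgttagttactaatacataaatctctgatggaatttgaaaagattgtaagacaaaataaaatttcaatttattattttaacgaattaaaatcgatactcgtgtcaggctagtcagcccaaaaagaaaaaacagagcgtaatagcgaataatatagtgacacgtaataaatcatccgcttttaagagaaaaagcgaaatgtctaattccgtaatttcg
HSFA1E upstream region, chr3:673178-673427, plus strand: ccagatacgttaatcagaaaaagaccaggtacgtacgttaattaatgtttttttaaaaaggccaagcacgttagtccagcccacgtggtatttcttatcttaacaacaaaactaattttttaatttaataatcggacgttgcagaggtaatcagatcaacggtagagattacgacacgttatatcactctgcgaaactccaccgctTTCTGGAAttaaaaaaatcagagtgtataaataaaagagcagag
HSFA4A upstream region, chr4:10349903-10350152, minus strand: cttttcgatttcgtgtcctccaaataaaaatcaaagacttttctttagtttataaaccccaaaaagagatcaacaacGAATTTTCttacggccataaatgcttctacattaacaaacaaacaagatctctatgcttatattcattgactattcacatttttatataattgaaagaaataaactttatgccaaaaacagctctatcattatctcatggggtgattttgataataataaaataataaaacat
The HSFA1D stretch has no capitals although its gene rose most. A match is a description of the letters, and the absence of one says only that these letters are not in this window.

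Reads that could fall on several of the 8 genes were looked for in their sequences. Global alignments of the coding sequences gave 45.6% identity for HSFA1A with HSFA4C and 71.5% for HSFA1B with HSFA1E, the lowest and highest of the 28 pairs. HSFA4A and HSFA4C shared 65.7%, and HSFA1A and HSFA1D 59%. No pair shared a run of more than 23 identical bases. Of the 50-base words of each gene's longest transcript, those of 7 genes occurred nowhere else in the genome, and 5 of 1575 (0.317%) of HSFA1A did. HSFA1B and HSFA1E, the nearest pair, had opposite heat values in pif4, -1.37 and 2.75.

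The other genes of the pathway were counted by lists chosen by role, with earlier results of these data known. The counts are therefore descriptions of the lists. Of 13 other heat shock factor genes 9 were tested, and 8 of them rose in WT with none lower, as in pif4 (25.5% and 25.6% of all genes were called higher). The median change was 3.81 in WT and 4.24 in pif4. With total counts 6 rose in WT and 7 in pif4, where 9.51% and 9.35% of all genes were called higher. HSFA2, the class A2 factor that prolongs the response, rose by 10.49 ± 0.32 on the log2 scale in WT (edgeR adjusted p = 8.86e-16), and by 11.28 without control library c, which held 47 of the 66 control reads. HSFA7B rose by 4.69 ± 0.19, and the class B repressors HSFB2B by 4.44 ± 0.21 and HSFB2A by 4.15 ± 0.17. HSFA6A, HSFA9 and HSFB3 were too low to test, HSFB1 has no value here, and HSFC1 was not called (0.39 ± 0.52).

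Of 10 genes known to need class A1 factors for heat induction, all 9 with values rose in both genotypes. The list was chosen for known heat induction, so this count was largely fixed in advance and tests nothing about class A1 factors. Over all genes 25.5% in WT and 25.6% in pif4 were called higher. The list medians were 5.05 in WT and 5.24 in pif4. With total counts 8 rose in WT and 9 in pif4, where 9.51% and 9.35% of all genes did. This list shares 5 tested genes with the list of other factors. HSP101, the disaggregase of acquired thermotolerance, rose by 9.74 ± 0.23 in WT, HSA32, which prolongs acquired thermotolerance, by 8.71 ± 0.25, and the co-activator MBF1C by 7.88 ± 0.28.

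Of 10 genes for HSP70, HSP90 and the heat shock factor binding protein HSBP, which restrain class A factors, 8 rose in each genotype, where 25.5% of all genes in WT and 25.6% in pif4 were called higher. HSBP was called lower in WT (-0.67 ± 0.27, edgeR adjusted p = 0.0439) and lay at -0.38 ± 0.26 in pif4, and HSP90.4 was called in neither. The list medians were 4.18 and 4.14, and 3.16 and 3.10 with total counts. HSP70B rose by 11.86 ± 0.29 in WT, HSP90.1 by 10.83 ± 0.25, HSP70-4 by 9.25 ± 0.21 and HSP90.2 by 5.29 ± 0.18. Genes within the HSP70 family are nearly identical in places, as are genes within the HSP90 family, so reads split within a family are uncertain. The sequences of these genes were not compared here.

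Of 7 genes for kinases, a phosphatase and a calmodulin tied to class A1 or A4 factors, 2 rose and 1 fell in WT, and 3 rose and 2 fell in pif4. These counts are near the shares of all genes called higher (25.5% in WT and 25.6% in pif4) and lower (26% and 24.1%). CDKA;1, a cell cycle kinase, fell by 1.09 on the log2 scale in WT (SE 0.22, edgeR adjusted p = 0.000406). The calmodulin CAM3 rose by 0.91 ± 0.15 (adjusted p = 6.03e-05), which turned to -0.11 with total counts. The kinase BIN2 rose by 0.33 ± 0.13 (adjusted p = 0.0318), a call that ended under RLE scaling (adjusted p = 0.0771) and without WT library a or c of the control or the heated group, and turned to -0.69 with total counts (adjusted p = 6.82e-05). With total counts no gene of this list rose and 6 in WT and 5 in pif4 fell, where 62% of all genes were called lower in each genotype.

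Of 4 oxidative stress genes tied to class A4 or A8 factors, the 3 tested rose in both genotypes. Over all genes 25.5% in WT and 25.6% in pif4 were called higher. WRKY30 was too low to test, with 7 reads in WT and 60 in pif4 at 22 °C and 0 in both at 37 °C. In WT, APX2, which encodes an ascorbate peroxidase of the cytosol, went from 1 read in all to 34290 reads, a ratio whose 95% counting interval ran from 20747 to 4566150 and covers counting error only. The zinc finger factor ZAT12 rose by 3.18 ± 0.34 and APX1 by 2.03 ± 0.14 in WT. In these 5 lists no gene was called between genotypes or in the difference of heat effects by edgeR.

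**Figure D4:**
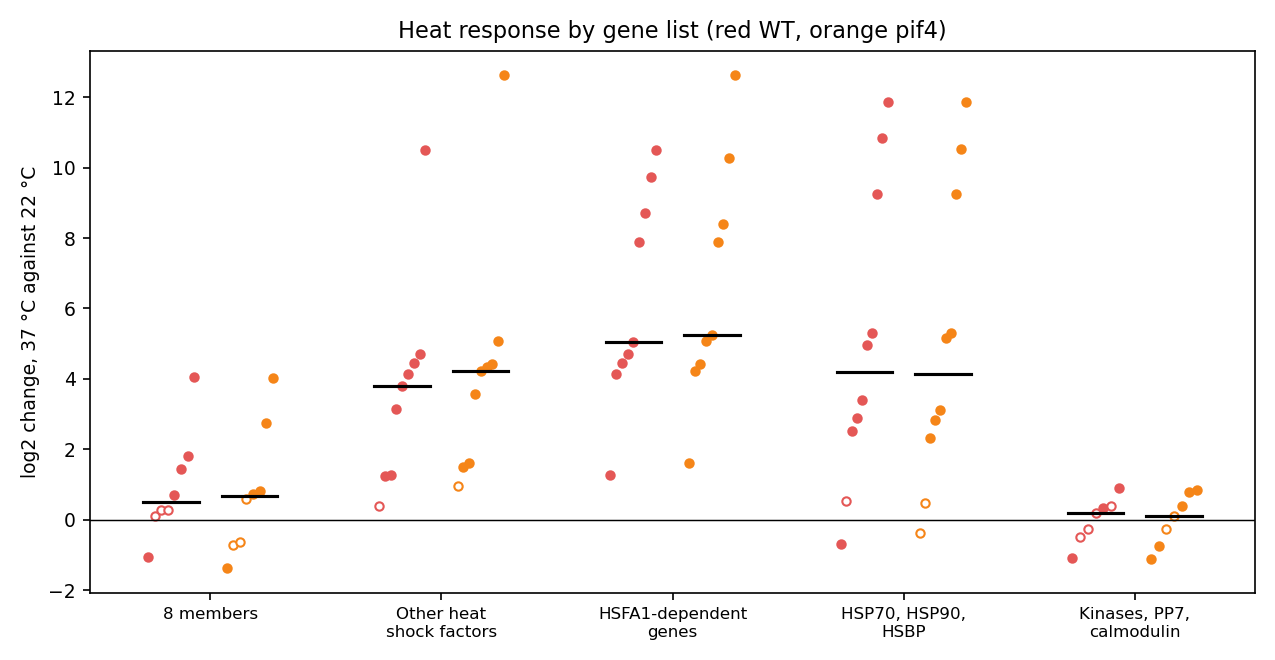
Log2 change from 22 °C to 37 °C of each tested gene, in WT (red) and pif4 (orange), for the 8 genes and for 4 lists of the pathway, with filled points called at an adjusted p under 0.05, open points not called, and black lines at list medians. The 8 genes have medians of 0.50 and 0.66, and the other heat shock factors of 3.81 and 4.24.

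Across the 12 libraries the profiles of HSFA1D and HSFA1E correlated with r = 0.927, those of HSFA1D and HSFA4C with r = 0.910 and those of HSFA1D and HSFA4A with r = 0.868 (Pearson, log2 CPM, a description over 12 libraries that share the temperature contrast). HSFA5 lay between -0.533 and -0.074 with every other member. Among 13585 genes whose mean reached 5 CPM, the profile most like HSFA1D was that of XTH22 (r = 0.999). XTH22 lay at 22.7 CPM on average at 22 °C and 334 CPM at 37 °C. Next came AT2G15810 (0.998), which had 0 CPM on average at 22 °C and 111 CPM at 37 °C. AT2G15810 reached the mean of 5 CPM through the heated libraries alone, so its r reflects the split of temperatures. How many genes that rose on heat came close to these r values was not counted. Nearest to HSFA1E were AT1G33230 and OFP5 (both 0.981), to HSFA4A were MSBP2 (0.969) and TCP5 (0.968), and to HSFA4C were OEP163 (0.984) and AT3G13882 (0.980). Nearest to HSFA1B were RPS25D (0.940) and RPS15D (0.912), and to HSFA1A were CRK10 (0.869) and AT5G35995 (0.833). HSFA5 and HSFA8 had no profile as close, with AT1G16270 (0.828) and AT1G14330 (0.825) nearest to HSFA5 and GTE3 (0.794) and AT5G19950 (0.792) nearest to HSFA8.

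**Figure D5:**
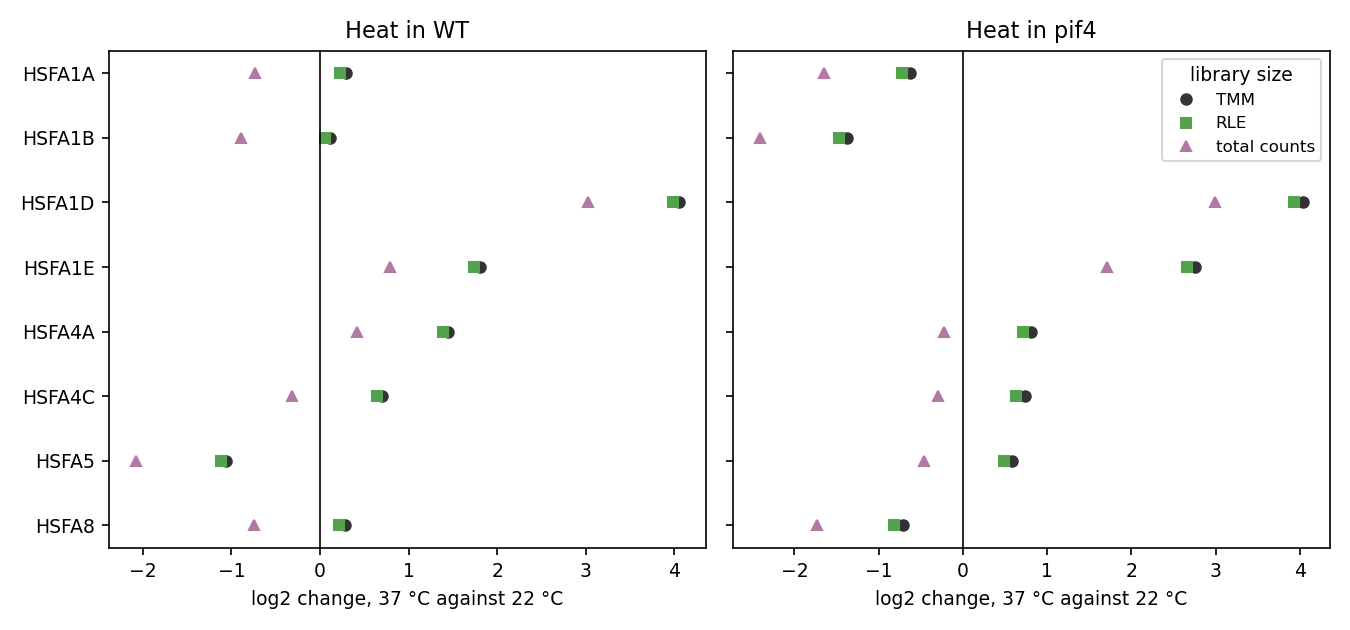
Log2 change from 22 °C to 37 °C of each gene under 3 choices of library size (circles TMM, squares RLE, triangles total counts), for WT on the left and pif4 on the right. Every triangle lies left of its circle, and HSFA4C passes zero in both genotypes, HSFA4A and HSFA5 in pif4, and HSFA1A, HSFA1B and HSFA8 in WT.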

How the data were processed

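Raw read counts per gene, deposited by the authors as whole numbers, were used for 12 libraries (3 per group). The genome build was TAIR10, per the submitters' processing notes. Which aligner and counting tool were used, and whether by strand, is not given in the sources used here. Libraries were tied to groups by column name. In all, 36 per-sample columns were not used: 12 length-corrected ones and 24 whose line codes match no label of the PIF4-L lines, so 5 planned comparisons of those lines were not run. No label says whether triplicates came from separate sowings, and p-values then reflect only how these libraries vary, which may be technical.

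The test was that of edgeR 4.0.16, run in R 4.3.3 (genes kept by filterByExpr, TMM scaling, robust quasi-likelihood F test, 2-sided, no covariate, Benjamini-Hochberg over 18774 of 32328 genes). Depth was 3176106 to 14791597 reads, and the biological coefficient of variation was 23.4%. Each SE was the absolute log2 change over the root of its F value. DESeq2 1.42.0, other scalings, no filter, a replicate block and leaving out libraries were the alternatives. The code was tested on simulated counts. The members and lists were chosen with earlier results of these data known. Genes named from a list are up to 4 called genes with the largest change in WT. Coding lengths, coordinates and promoter sequences come from RefSeq (TAIR10.1). Of the marker genes chosen, 8 are reported and 1 is not reported here. Letters were taken to pair libraries only in the comparison of genotypes at 22 °C. There, deviations from the group means of all 3 same-letter pairs correlated over 0.1 (0.159 to 0.405). In every other comparison 1 or 2 of 3 pairs did. The estimates, SEs and p-values printed for genotypes at 22 °C come from the fit without this pairing. With the letters as a block, no member was called there either.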

Additional observations from a re-analysis of the deposited data

Results flagged for a closer look

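HSFA5 is singled out because its heat response had opposite directions in every library of the 2 genotypes. All 3 heated WT libraries lay below all 3 control WT libraries, and all 3 heated pif4 libraries lay above all 3 control pif4 libraries. The difference of the heat effects, pif4 minus WT, was 1.64 on the log2 scale, with an unadjusted p of 2.61e-04 and an edgeR adjusted p of 0.524 over 18774 genes, so it did not pass the correction. Leaving out 1 library moved it between 1.51 and 1.83. With total counts it was 1.62, but there both genotypes had a negative value. The cause was not tested.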

How the results depend on the processing

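The calls of HSFA1D and HSFA1E in both genotypes, of HSFA5 in WT and of HSFA1B in pif4 kept their direction and side of the threshold under each alternative run. HSFA1D ranged from 3.02 to 4.23 in WT and 3.00 to 4.13 in pif4. With total counts as library size, directions turned on heat in WT for HSFA1A (-0.74), HSFA1B (-0.89), HSFA4C (-0.31), HSFA8 (-0.74), CAM3 (-0.11) and BIN2 (-0.69). In pif4 they turned for HSFA4A (-0.22), HSFA4C (-0.30) and HSFA5 (-0.46). Heat changes of the members came out lower with total counts than with TMM. Which of these scalings lies nearer to the true levels was not tested. Without the 4 libraries lettered a, an alternative chosen after seeing the data, HSFA1B (-0.23) and HSFA8 (-0.90) turned on heat in WT, HSFA8 turned between genotypes at 37 °C (0.77) and in the difference of heat effects (0.35), and 3 members were called on heat in pif4. The share of all genes called on heat in pif4 in that fit is not given here, so the 3 members cannot be set against it. The HSFA4C difference of heat effects was -0.00899 under RLE and -0.00948 by DESeq2.

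Leaving out 1 library gave the following ranges. On heat in WT, HSFA1B ran from -0.28 (without WT library a at 37 °C) to 0.40 and HSFA8 from -0.54 to 0.77. Between genotypes at 22 °C, HSFA1A ran from -0.219 to 0.0582, HSFA1B from -0.0165 to 0.221, HSFA1D from -0.172 to 0.0826 and HSFA4C from -0.156 to 0.0571. At 37 °C, HSFA1D ran from -0.235 to 0.0638, HSFA4C from -0.124 to 0.0696 and HSFA8 from -0.86 to 0.73. In the difference of heat effects, HSFA1D ran from -0.19 to 0.12 and HSFA4C from -0.0774 to 0.134. Members called on heat in pif4 numbered 3 to 5, with 3 without library a at 37 °C. Over all genes these fits called 7920 to 8789 on heat in pif4, against 9336 in the main fit. HSFA5 on heat in pif4 was called without library b at 22 °C (0.78, adjusted p = 0.0408). Over all genes, 3 to 40 were called between genotypes at 22 °C, 2 to 18 at 37 °C and 0 to 1 in the difference.

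The number of genes called between genotypes at 22 °C was 16, and it was 8 with total counts, 52 with no filter, 6 with only the compared groups, 86 by DESeq2 and 2 without the libraries lettered a. At 37 °C it was 10, and 76 with no filter, 136 by DESeq2 and 3 without those libraries. Which genes these fits share was not counted. DESeq2 called 1 member at 37 °C. In the difference of heat effects, no filter and DESeq2 gave 2. The HSFA4C call on heat in WT ended with no filter (adjusted p = 0.0624). The replicate block on the letters gave 27 genes at 22 °C and 55 at 37 °C and changed no call of a member or a named gene. Outside the genotypes at 22 °C, not every same-letter pair passed the limit for pairing; over all comparisons 11 of 18 pairs did, with correlations from -0.10 to 0.40, and 8 of 12 libraries correlated best with their own letter, a hint from the data and not from the design. The fit with only the compared groups is the main one for the difference of heat effects and gave no separate value. The causes of these changes were not tested. HSFA8 had as few as 2 reads in a library.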
